A study of Mus musculus with 10 samples.

Results

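The genes described here are 9 cyclin genes (Ccna1, Ccna2, Ccnb1, Ccnb2, Ccnd1, Ccnd2, Ccnd3, Ccne1 and Ccne2) and Cdk6, a cyclin-dependent kinase. They were taken by symbol from the GENCODE annotation of the mouse genome build mm9, where each of the 10 symbols matched 1 of 37310 annotated genes. The rule goes by symbol and uses no measured value, but the group was put together with earlier results of these data known. ChIP-seq for H3K27me3 (trimethylation of histone H3 at lysine 27) was carried out in 5 lines to ask how the mark changes as lymphoma cells become resistant to mafosfamide, an alkylating agent that is active in culture. The parental line is a B-cell lymphoma line from a C57BL/6J mouse of the genotype Eμ-Myc and Cdkn2a-/-, so Myc is expressed from the Eμ enhancer, which is active in B cells, and the Cdkn2a locus is lost. The R100, R500, R1000 and R4000 lines are resistant clones isolated from the parental culture by dose escalation with mafosfamide, at the concentration in nM that gives each its name (100, 500, 1000 or 4000), so they share its transgene and its Cdkn2a deletion, and all 5 lines were grown without the drug for ChIP-seq. Each line is represented by 1 peak list, which gives positions and no height, score or read count. The sequencing depth is therefore unknown, and no difference between lines could be tested against a spread between replicates. The quantity compared below is the covered length, the number of bases of a gene's window that lie in distinct peaks. The window runs from 5 kb upstream of the 5' end of the gene to its 3' end.

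Cyclins are the regulatory partners of cyclin-dependent kinases. D-type cyclins join Cdk4 or Cdk6 in G1 and start the phosphorylation of the retinoblastoma protein, E-type cyclins join Cdk2 at entry into S phase, A-type cyclins act in S phase and G2, and B-type cyclins join Cdk1 for mitosis. H3K27me3 is deposited by polycomb repressive complex 2 (PRC2), lies in broad domains over the CpG-rich promoters of silenced developmental genes, and is associated with low transcription. In B cells Ccnd2 and Ccnd3 are the D-type cyclins mostly used, while Ccnd1 is typically silent, and Ccna1 is known mainly from the male germ line.

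The 5 lists differed in size, with between 6820 distinct peaks covering 1.07 Mb in R4000 and 25180 covering 5.04 Mb in R100. In the lists of R100 and R500 each peak stands 2 times and was counted once. The 5 myeloid markers had no peak in any line, as had 68.4% of all annotated genes. The 10 B-cell markers, present as 11 annotation entries, had none in the parental line, where 9.72% of all annotated genes had one. In R100 4 of the entries (among them Cd79b and Ebf1) were covered over at least 150 bp, against 15.8% of all genes. R500 had 4 such entries (against 12.7%), R1000 had 2 (against 6.63%) and R4000 had 1 (against 5.39%). Of the 6 T-cell markers, the regulator Gata3 had 1800 bp of coverage in parental cells, 5650 bp for R100, 6100 bp for R500, 1200 bp for R1000 and 400 bp for R4000. Among the others only Cd4 had a peak in parental cells (200 bp), and Cd8a had none in any line. The longest coverage of these others in any line was 700 bp, at Cd4 in R100. A peak of a repressive mark is no measure of expression, so these values do not identify the cells. Neither Cdkn2a, which is deleted in all lines, nor the adjacent Cdkn2b had a peak in any list.

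H3K27me3 peaks were found at 7 of the 10 genes in at least 1 line, against 31.6% of all annotated genes and 42.8% of protein-coding genes. The windows differ in length, and Ccnd3 is among the 7 through 1 peak of 100 bp in a window of 99633 bp. Ccnd2 had peaks in all 5 lines (background 5.24%) and held most of the covered bases, from 72.3% of the summed length of the 10 genes in R100 to 97.7% in R1000. The summed length was 4116 bp for parental cells. R100 had 7750 bp (1.88 times parental) and R500 had 7666 bp (1.86 times), while R1000 had 4416 bp (1.07 times) and R4000 had 3966 bp (0.964 times). Over all annotated genes the same ratios were 3.31, 2.95, 1.12 and 0.783, which in R100 and R500 are above the ratios of the 10 genes. That order rests on Ccnd2, since without it the ratios of the other 9 genes were 8.6 in R100 and 8 in R500, above those of all genes. These 2 ratios rest in turn on a parental length of 250 bp, all of it 1 peak of Cdk6, and say little about the other genes. As a share of each whole list the order was turned around, since R100 (0.154%) and R500 (0.169%) lay below the parental line (0.252%) while R1000 (0.274%) and R4000 (0.369%) lay above it. Without Ccnd2 the other 9 genes together had 2150 bp in R100 and 2000 bp in R500, against 250 bp in parental cells, 100 bp for R1000 and 350 bp for R4000. R100 and R500, the lines with the longest lists, were thus the highest also without Ccnd2, and R4000 then lay above the parental line.

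**Figure D1:**
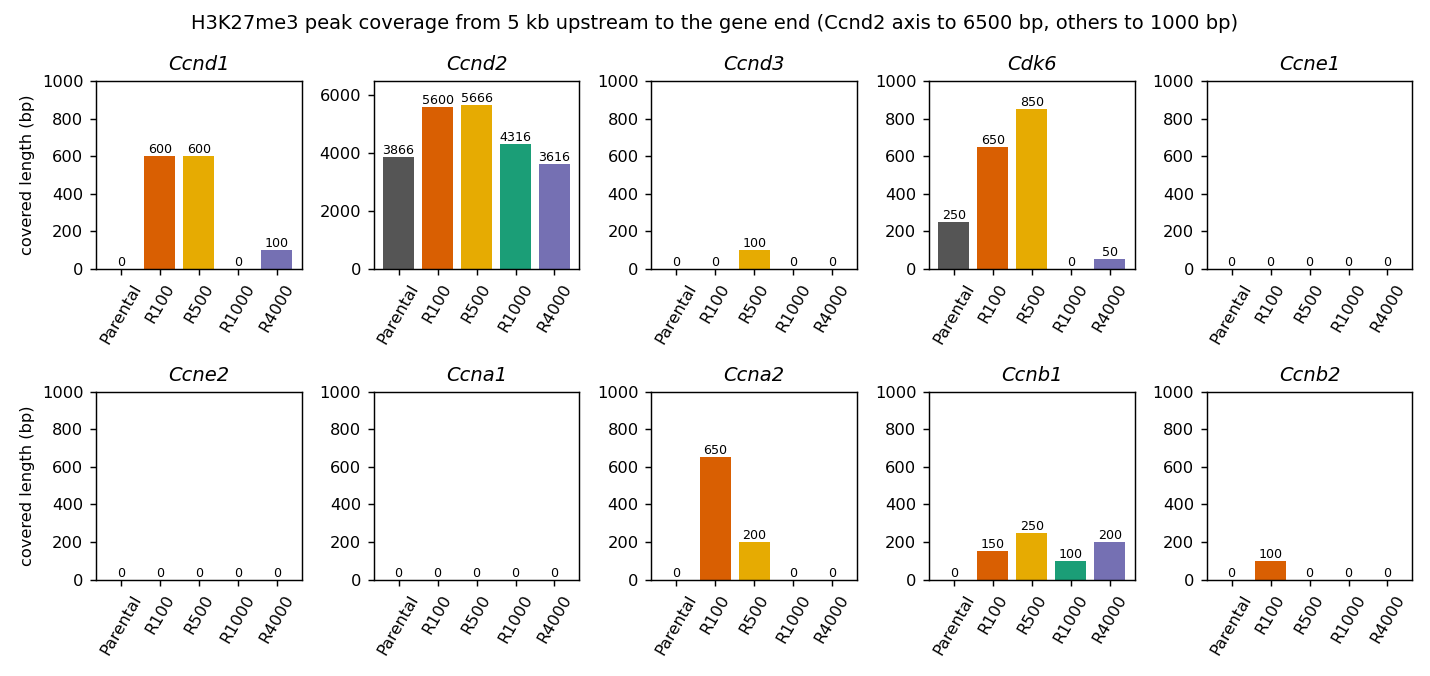
Covered length (bp, vertical axis) of each gene in the parental line and the 4 resistant lines, as 1 bar per peak list; the axis runs to 6500 bp for Ccnd2 and to 1000 bp for the others. Ccnd2 is covered over 3616 to 5666 bp in every line, Ccne1, Ccne2 and Ccna1 are at 0 in every line, and the other genes are longest in R100 or R500.

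At least 1 bp was covered at 2 of the 10 genes in parental cells (background 9.72%), at 6 in R100 (background 25.0%), at 6 in R500 (background 20.2%), at 2 in R1000 (background 12.0%) and at 4 in R4000 (background 10.4%). From here on, a gene is counted as covered where peaks took up at least 150 bp of its window, which is 3 bins of 50 bp. In the parental line 2 of the 10 genes were covered (Ccnd2 and Cdk6, against 5.82% of all genes). In R100 there were 5 (background 15.8%) and in R500 5 (background 12.7%), the same genes in both lines, namely Ccna2, Ccnb1, Ccnd1, Ccnd2 and Cdk6. R1000 had 1, Ccnd2 (background 6.63%), and R4000 had 2, Ccnb1 and Ccnd2 (background 5.39%). Among protein-coding genes alone the backgrounds were 7.67%, 21.7%, 17.0%, 8.86% and 7.05% in the order of the lines. A gene was called longer in a resistant line where its covered length was at least 2 times the parental length and at least 150 bp more. Ccna2, Ccnb1, Ccnd1 and Cdk6 met this rule in R100 (background 13.7%) and in R500 (background 10.4%). Among protein-coding genes alone these shares were 18.9% and 14.0%. In R4000 only Ccnb1 was called longer (background 1.91%), and in R1000 none of the 10 was (background 2.72%). Cdk6 was called shorter in R1000 (background 1.68%) and in R4000 (background 2.81%), and none of the 10 genes was called shorter in R100 or R500 (background 0.394% and 0.386%).

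**Figure D2:**
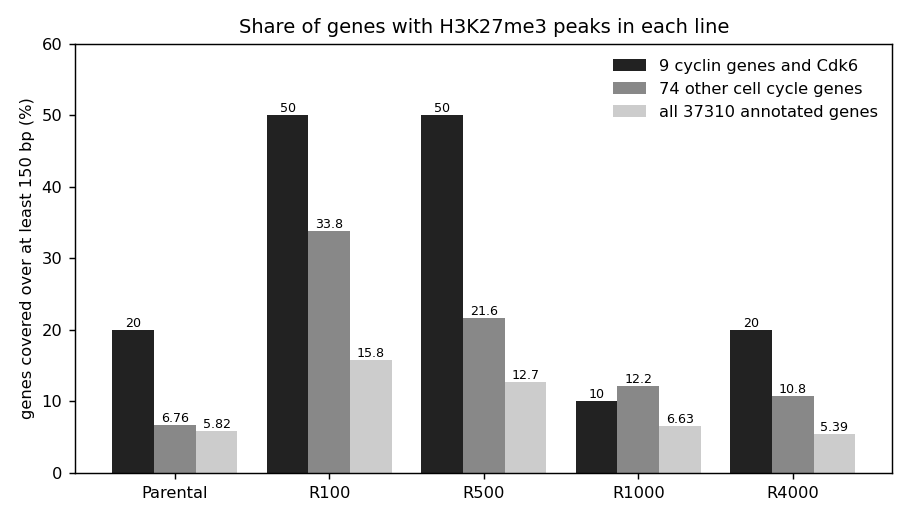
Percentage of genes covered over at least 150 bp (vertical axis) in each line, for the 9 cyclin genes with Cdk6, for 74 other cell cycle genes and for all 37310 annotated genes. Each bar is a share of genes in 1 peak list and has no error; the share of the 10 genes is 50% in R100 and R500 and between 10% and 20% in the other lines.

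Ccnd2 (ENSMUSG00000000184.9), which encodes a D-type cyclin of proliferating B cells, lies on the minus strand of chromosome 6 from 127075797 to 127101066. Peaks took up 3866 bp of its window in parental cells, while R100 had 5600 bp, R500 had 5666 bp, R1000 had 4316 bp and R4000 had 3616 bp. It was the only gene of the 10 with at least 150 bp that were covered in each of the 5 lists (background 1.54%). R100 and R500 were thus the longest and R4000 was the shortest, and in no line was the length 2 times the parental one. Among the 22380 protein-coding genes, the number with at least as long a coverage, the gene itself included, was 24 for parental cells, 64 for R100, 61 for R500, 17 for R1000 and 18 for R4000. The direction against parental in R1000 and R4000 depended on the window. From 20 kb upstream, a window chosen after the data were seen, the lengths were 5250, 6300, 6450, 4900 and 3650 bp in the order of the lines, so that R1000 lay below parental, and in the 5 kb upstream alone R4000 had 2466 bp and parental 2316 bp.

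The covered bases of Ccnd2 formed a string of peaks from the edge of the window at -5000 to 3115 bp, counted from the 5' end of the gene as 0 with upstream positions negative, and R100 had 1 further peak of 50 bp at 8666 bp. The upstream part and most of the first 1665 bp of the gene overlap 9330179D12Rik, a long noncoding RNA gene on the opposite strand, so peaks there cannot be assigned to 1 of the genes. By the number of lines, 2300 bp were covered in all 5 lines, 1716 bp in 4, 900 bp in 3, 550 bp in 2 and 900 bp in 1. Most of the parental domain was found again, as R100 held 98.3% of its bases, R500 held 97.4%, R1000 held 80.6% and R4000 held 71.5%. Conversely, parental bases made up 67.9% of the R100 length, 66.5% of the R500 length, 72.2% of the R1000 length and 76.5% of the R4000 length. Of the R4000 bases 99.6% were also covered in R100, and they made up 64.3% of the R100 length.

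The widest stretch covered in all 5 lines ran over 1050 bp from -3684 to -2635, and the next widest over 650 bp from 466 to 1115, within the first intron apart from the last base of exon 1. The middle 300 bp of each are shown, since they carry the mark whatever the line. They lie at chr6:127104076-127104375 (-3309 to -3010) and chr6:127100126-127100425 (641 to 940), are read from the mm9 genome on the minus strand, 5' to 3', and have CG dinucleotides in capitals.
Ccnd2 upstream: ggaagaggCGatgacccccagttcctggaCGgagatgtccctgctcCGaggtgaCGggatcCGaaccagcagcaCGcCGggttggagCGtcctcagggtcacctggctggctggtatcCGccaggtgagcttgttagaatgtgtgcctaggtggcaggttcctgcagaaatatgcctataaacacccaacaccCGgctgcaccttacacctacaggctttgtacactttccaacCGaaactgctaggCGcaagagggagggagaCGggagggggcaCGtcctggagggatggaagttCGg
Ccnd2 intron: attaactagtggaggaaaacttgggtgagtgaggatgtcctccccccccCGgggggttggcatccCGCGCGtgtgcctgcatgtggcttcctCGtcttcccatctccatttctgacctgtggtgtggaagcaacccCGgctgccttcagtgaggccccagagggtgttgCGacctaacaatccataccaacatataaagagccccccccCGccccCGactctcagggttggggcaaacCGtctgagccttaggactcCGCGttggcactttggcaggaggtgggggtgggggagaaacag
The upstream sequence holds 15 CG dinucleotides against a median of 2 at the same position of protein-coding genes, and 1.13% of those windows hold as many. The intron sequence holds 12 against a median of 5, and 18.7% of the windows there hold at least as many.

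In bp, the lines differed most within 2 kb of the 5' end. In the parental line the nearest peaks ended at -785 and began at 316, which left 1100 bp without a peak. R100 and R500 each had a gap of 300 bp, R1000 had 800 bp and R4000 had 650 bp. Within 2 kb upstream, parental cells had 400 bp, R100 had 1300 bp, R500 had 1165 bp, R1000 had 950 bp and R4000 had 750 bp, so all 4 resistant lines lay above parental on this side. Within 2 kb downstream the lengths were 1300 bp for parental cells, 1784 bp for R100, 1684 bp for R500, 1300 bp for R1000 and 950 bp for R4000. Over both sides together R4000 equalled parental cells, with 1700 bp each. From 2 to 5 kb upstream the lines were closer together, with 1916, 1950, 2051, 1666 and 1716 bp in the same order. From 2 kb downstream to the 3' end they had 250, 566, 766, 400 and 200 bp. That spread is smaller in bp than within 2 kb of the 5' end, but larger in proportion. In all, 600 bp of Ccnd2 were covered in each of the 4 resistant lines and not in the parental line, and at least 150 bp of this kind were found at 1.41% of all annotated genes. This quantity was added after the positions at Ccnd2 had been seen. The lists of R1000 and R4000 cover fewer bases in all than the parental list (0.988 and 0.658 times), while R100 and R500 cover more. Most of the 600 bp are a stretch of 450 bp from -784 to -335, whose middle 300 bp, at chr6:127101476-127101775 on the minus strand of mm9, read as follows with CG in capitals.
Ccnd2 near the 5' end: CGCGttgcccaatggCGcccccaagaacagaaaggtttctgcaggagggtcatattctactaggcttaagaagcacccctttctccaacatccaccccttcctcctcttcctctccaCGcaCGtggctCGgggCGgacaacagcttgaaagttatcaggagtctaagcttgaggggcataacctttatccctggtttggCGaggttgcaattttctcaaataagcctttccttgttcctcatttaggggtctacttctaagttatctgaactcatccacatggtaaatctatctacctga
The sequence holds 8 CG dinucleotides against a median of 4 at this position, where 22.9% of protein-coding genes have at least as many.

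**Figure D3:**
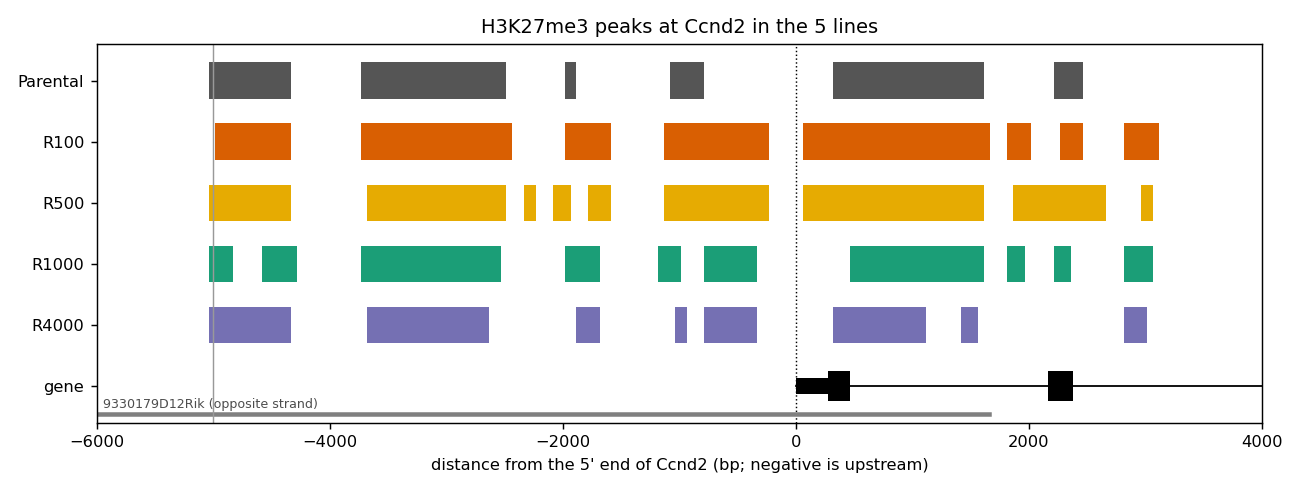
H3K27me3 peaks (coloured boxes) in each line against the distance from the 5' end of Ccnd2 in bp, with its exons in black (coding parts taller), the extent of the opposite-strand gene 9330179D12Rik in grey and the edge of the window at -5000 as a grey line. The upstream stretch from -3684 to -2635 is covered in all 5 lines, and the stretch from -784 to -335 is covered in the 4 resistant lines and open in the parental line.

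Ccnd1 (ENSMUSG00000070348.4, chromosome 7 from 152115836 to 152125774, minus strand) encodes the D-type cyclin that B cells commonly lack. It had no peak in the parental line and R1000, 600 bp in each of R100 and R500, and 100 bp in R4000. R100 and R500 had 4 peaks each, which shared 300 bp from 374 to 673, in the first intron. The 2 peaks of R4000 were 50 bp wide, and 1 of them, from 324 to 373, lay within the coding end of exon 1 and within an R100 peak. The other, from -3326 to -3277, lay within a peak of R500. The stretch shared by R100 and R500, at chr7:152125101-152125400 on the minus strand, is given as the part of Ccnd1 with the widest recurrent coverage, with CG in capitals.
Ccnd1 intron: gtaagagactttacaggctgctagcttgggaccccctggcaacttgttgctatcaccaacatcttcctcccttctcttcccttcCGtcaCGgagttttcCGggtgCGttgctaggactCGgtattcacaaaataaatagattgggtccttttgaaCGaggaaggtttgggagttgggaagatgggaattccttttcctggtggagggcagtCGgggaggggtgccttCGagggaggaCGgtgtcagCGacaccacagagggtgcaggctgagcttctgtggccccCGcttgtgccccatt
It holds 11 CG dinucleotides against a median of 7 at the same position of protein-coding genes, of which 38.3% have at least as many.

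Ccnd3 (ENSMUSG00000034165.8, chromosome 17 from 47642000 to 47736632, plus strand), the other D-type cyclin of B cells, had a single peak of 100 bp, in R500. It lay at 88551 bp from the annotated 5' end, but from 135 to 234 bp downstream of the start of a shorter annotated transcript. No other annotated gene overlaps the peak, but the gene whose 5' end is nearest to it is Bysl. The last 47 bp of the peak are coding sequence of Ccnd3, at chr17:47730604-47730650 on the plus strand, and begin with the start of the open reading frame. They are printed as the part of the peak outside the untranslated region, with CG in capitals.
Ccnd3 exon: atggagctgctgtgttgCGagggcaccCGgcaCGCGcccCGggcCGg

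Cdk6 (ENSMUSG00000040274.5, chromosome 5 from 3343893 to 3523218, plus strand) encodes a kinase partner of the D-type cyclins. The parental list had 250 bp there, R100 had 650 bp, R500 had 850 bp, R4000 had 50 bp and R1000 had none. R100 and R500 were above the parental line and R1000 and R4000 below it, an order held by 2.39% of all annotated genes. Coverage stood almost wholly upstream of the gene, apart from 50 bp of R500 at 108 to 157, although the gene body is long. The single parental peak, from -3342 to -3093, was covered whole in R500 and in no other line. R100 and R500 had further peaks between -2792 and -93, and no base of Cdk6 was covered in more than 2 lines. The single peak of R4000, from -2342 to -2293, coincided with a peak of R500. When only the 6820 widest peaks of every list were kept, the lengths were 250, 400, 300, 0 and 50 bp in the order of the lines, and Cdk6 was then called longer in neither R100 nor R500. The parental peak, at chr5:3340551-3340800 on the plus strand, reads as follows with CG in capitals.
Cdk6 upstream: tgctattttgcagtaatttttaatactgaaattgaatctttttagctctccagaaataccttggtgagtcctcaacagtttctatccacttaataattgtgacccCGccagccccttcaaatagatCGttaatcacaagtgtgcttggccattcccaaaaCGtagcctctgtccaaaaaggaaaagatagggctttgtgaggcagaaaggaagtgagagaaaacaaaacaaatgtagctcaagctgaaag
This stretch holds 3 CG dinucleotides against a median of 2 at that distance, where 36.2% of protein-coding genes have at least as many. Of its bases 39.6% are G or C.

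The E-type cyclins, which carry cells into S phase, had no peak. Ccne1 (chromosome 7 from 38883003 to 38892553) and Ccne2 (chromosome 4 from 11118498 to 11131926) were at 0 bp in all 5 lines, also from 20 kb upstream, as are 68.4% of all annotated genes in the window of 5 kb. The germ-line cyclin Ccna1 (chromosome 3 from 54849391 to 54858977) was likewise at 0 bp in every line. Because the depth is unknown, H3K27me3 at these genes was not detected rather than shown to be absent.

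Ccna2 (ENSMUSG00000027715.3, chromosome 3 from 36463788 to 36471072, minus strand), the A-type cyclin of dividing somatic cells, was covered over 650 bp in R100 and 200 bp in R500 and had no peak in the parental, R1000 and R4000 lines. The R100 peak ran from 372 to 1021, over the coding end of exon 1 and into the first intron, and the R500 peak lay within it. Ccna2, Ccnb2 and Ccnd3 had peaks in R100 or R500 and in no other line, a pattern held by 13.8% of all genes. The 200 bp shared by R100 and R500, at chr3:36470501-36470700 on the minus strand, are shown with CG in capitals as the part of Ccna2 covered in both lines.
Ccna2 exon and intron: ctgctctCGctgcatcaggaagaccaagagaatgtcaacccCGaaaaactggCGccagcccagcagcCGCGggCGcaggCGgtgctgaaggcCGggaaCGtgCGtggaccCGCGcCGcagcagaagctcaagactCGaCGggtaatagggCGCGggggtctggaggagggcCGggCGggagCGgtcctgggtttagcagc
They hold 20 CG dinucleotides against a median of 5 at this position, and 11.5% of protein-coding genes have as many there.

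Ccnb1 (ENSMUSG00000041431.10, chromosome 13 from 101548605 to 101556525, minus strand), which encodes the main mitotic cyclin, had no peak in the parental line and 1 peak in each resistant line, with widths of 150 bp (R100), 250 bp (R500), 100 bp (R1000) and 200 bp (R4000). Among the 10 genes it was the only 1 with peaks in all 4 resistant lines and none in parental cells (background 1.27%). Ccna2, Ccnb1 and Ccnd1 had none in parental cells and some in both R100 and R500 (background 8.15%). The 4 peaks lay between 275 and 624, in the first intron, and shared 50 bp from 375 to 424, at chr13:101556101-101556150 on the minus strand. That shared stretch is given below, with CG in capitals. With lists of equal number the R100 peak was lost.
Ccnb1 intron: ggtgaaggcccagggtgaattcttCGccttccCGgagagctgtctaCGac
Ccnb2 (ENSMUSG00000032218.6, chromosome 9 from 70255496 to 70269361, minus strand), another mitotic B-type cyclin, had 1 peak of 100 bp, in R100, from 211 to 310 in the first intron (chr9:70269051-70269150). This only peak of Ccnb2 is shown in full and lies, like those of Ccnb1, in the first intron.
Ccnb2 intron: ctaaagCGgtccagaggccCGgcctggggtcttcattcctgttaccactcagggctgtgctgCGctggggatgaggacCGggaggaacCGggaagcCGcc
The Ccnb1 stretch holds 3 CG dinucleotides and the Ccnb2 peak 6, against medians of 1 and 4 at the same positions. At least as many are found there at 35.0% and 41.6% of protein-coding genes.

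**Figure D4:**
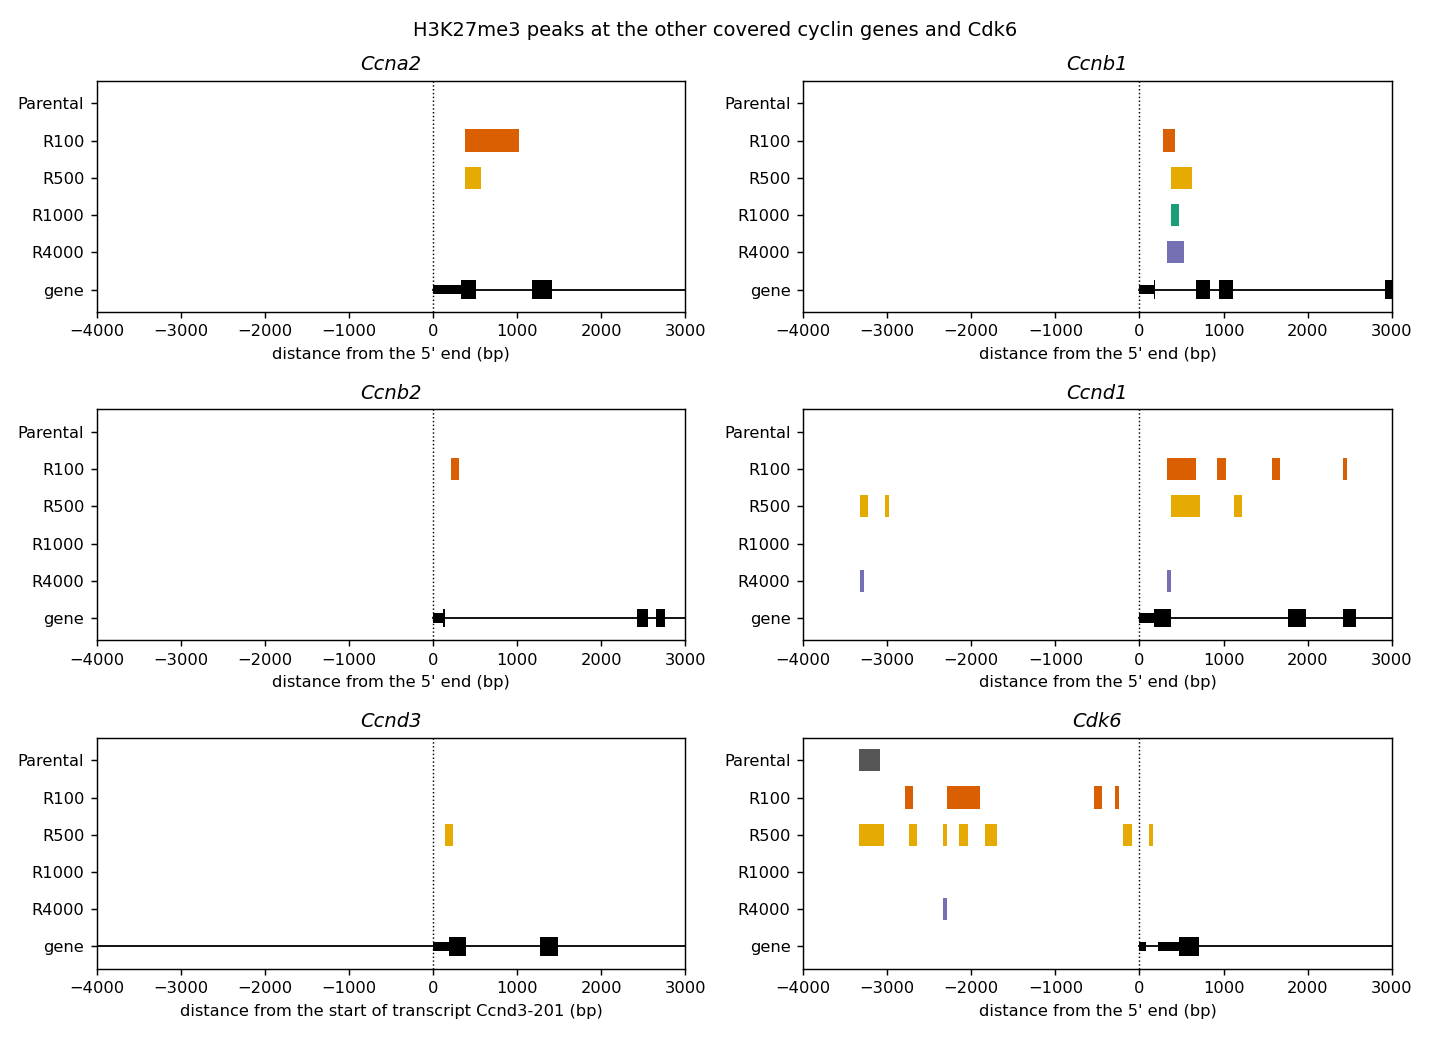
H3K27me3 peaks (coloured boxes) in each line at Ccna2, Ccnb1, Ccnb2, Ccnd1, Ccnd3 and Cdk6 against the distance in bp from the 5' end, or for Ccnd3 from the start of its shorter transcript, with exons in black. Peaks of Ccna2, Ccnb1, Ccnb2 and Ccnd3 lie between 135 and 1021 bp downstream of a start. Most peaks of Ccnd1 reach outside this range, upstream or further downstream. Those of Cdk6 lie upstream from -3342, apart from 1 of R500 at 108.

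In the first 1 kb downstream of the 5' end, R100 had peaks at Ccna2, Ccnb1, Ccnb2, Ccnd1 and Ccnd2, which are 5 of the 10 genes, against 15.2% of all annotated genes. R500 had them at 5 (Ccnb2 absent, Cdk6 present), with a background of 11.4%. The counts were 1 in the parental line (Ccnd2, background 3.67%), 2 in R1000 (Ccnb1 and Ccnd2, background 5.95%) and 3 in R4000 (Ccnb1, Ccnd1 and Ccnd2, background 5.21%). Among protein-coding genes these shares were 5.05%, 22.2%, 16.3%, 8.49% and 7.45% from parental to R4000. The promoter window of 5 kb upstream leaves these peaks out, and with it only Ccnd2 and Cdk6 were covered over at least 150 bp in R100.

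CG-rich promoters were found among covered and uncovered genes alike. Within 2 kb on both sides of the 5' end, Ccne2 had the most CG dinucleotides of the 10 genes (240) and no peak, and Ccne1 had 187 and Ccna1 126, also with no peak. Of the genes with peaks, Cdk6 had 220, Ccnd1 had 215, Ccnd2 had 185, Ccna2 had 141, Ccnb1 had 105, Ccnb2 had 76 and Ccnd3 had 64. For Ccnd3 this window does not hold its only peak, which lies at 88551 bp, near the start of the shorter transcript. The median over 22344 protein-coding genes was 85. E-boxes of the kind bound by E2a, the B-cell factor the study is about, were counted on both strands as CAGGTG and as CAGCTG, which reads the same on both strands. No stretch can match both motifs. In these 4 kb each of the 10 genes held between 1 and 5 copies of CAGGTG, which 94.1% of protein-coding genes have at least 1 time. CAGCTG was absent at Ccnd3 and Cdk6 and had between 1 and 4 copies at the others, and 82.6% of protein-coding genes have it. In the 9 printed sequences, CAGGTG was found only in the upstream stretch of Ccnd2, with 2 copies, and CAGCTG was in none. At the same position 20.2% of protein-coding genes have CAGGTG at least 1 time, and the share with 2 copies was not counted. A match is a description of the letters and no evidence of binding.

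Other cell cycle genes were taken from lists of 17 other cyclins, 19 other Cdks, 7 inhibitors of Cdks, 13 genes of the Rb and E2f families and 18 mitotic and checkpoint regulators. Of these 74 genes, coverage of at least 150 bp was found at 5 for parental cells (6.76%), 25 for R100 (33.8%), 16 for R500 (21.6%), 9 for R1000 (12.2%) and 8 for R4000 (10.8%). The shares over all annotated genes were 5.82%, 15.8%, 12.7%, 6.63% and 5.39% in the same order. The median covered length was 0 in every line, as it was over all annotated genes, and over the 10 genes it was 125 bp in R100, 150 bp in R500 and 0 in the other lines. By the rule above, 23 of the 74 were longer in R100 than in parental cells (background 13.7%) and 15 in R500 (background 10.4%). In each of R1000 and R4000 4 were longer (background 2.72% and 1.91%), and 1 was shorter, in R4000 (background 2.81%). In each list the genes with the most covered bases were Ccno and Ccnjl among other cyclins, Cdk18 and Cdk4 among other Cdks, Cdkn1a and Cdkn1c among inhibitors, E2f7 and E2f2 in the Rb and E2f families, and Plk1 and Aurka among mitotic regulators.

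Ccno, a cyclin of multiciliated cells, had 1500 bp in parental cells, 3150 bp for R100, 4050 bp for R500, 2100 bp for R1000 and 1750 bp for R4000. Like Ccnd2 it was covered in every line, and it was called longer in R100 and R500. Cdk4, the other kinase partner of the D-type cyclins, was covered over 450, 811, 1150, 661 and 250 bp in the same order. Thus Cdk4 and Cdk6 were both longest in R500, but Cdk4 also had 661 bp in R1000, where Cdk6 had none. Cdkn1a, which encodes the inhibitor p21, was covered over 500, 1500, 1600, 800 and 1100 bp. Plk1 and Aurka, mitotic kinases, had no peak in the parental line and R4000. In R100, R500 and R1000 Plk1 had 400, 350 and 50 bp, and Aurka had 350, 100 and 150 bp. Of the mitotic regulators, 0 of 18 had any peak in R4000, where 10.4% of all annotated genes had one.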

How the data were processed

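Chromatin from 5 lines was immunoprecipitated by the authors with an antibody to H3K27me3 and sequenced on an Illumina HiSeq, and windows along the genome were tested for enrichment over input with a Poisson model to give the peaks. The submitters' processing notes name Bowtie and mm9. The deposited lists hold peak positions in bp, 1-based and inclusive on a grid of 50 bp. The study states a p-value limit for its clustering of promoters, where 3 bins of 50 bp were required, and 2 replicates for its heat map. Whether the lists used that limit, and whether they pool the replicates, is not given in the sources used here. Reduced representation bisulfite sequencing of the same lines was not analysed here.

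Samples were matched to lines by title. All peak positions lay within the 21 chromosomes with peaks of NCBIM37 (mm9). Duplicate entries of R100 and R500 were dropped. Covered lengths were computed with numpy 2.4.6 and pandas 2.3.3 under Python 3.11.15, tested on simulated intervals, and checked against bedtools 2.31.1 for the 10 genes, with 0 differences. Sequences were read with pysam 0.24.0 and figures drawn with matplotlib 3.10.9. With 1 list per line no test was made, and counts of genes in the main setting are set beside the share over all annotated genes. Among protein-coding genes alone the share with peaks was higher in each line.

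The genes, lists and rules were chosen with earlier results of these data known. All 10 genes are named. Printed sequences are the widest stretches covered in the most lines, of at most 300 bp and without untranslated regions, and of the other lists the 2 genes with the most covered bases are named. For Ccnd2, a stretch covered in the resistant lines and not in the parental line was added after its positions had been seen. The alternatives were other windows, peaks of at least 100 bp, peaks within 1000 bp joined, lists of equal number, a minimum of 1 bp, the group without Ccnd2 and the share of each list.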

Additional observations from a re-analysis of the deposited data

Results flagged for a closer look

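The covered length of Cdk6 moved in opposite directions in the lines of low and high dose. Against the parental line it differed by 400 bp in R100 and 600 bp in R500, and by -250 bp for R1000 and -200 bp for R4000. The difference between the lines was not tested, since each has 1 list. Over all annotated genes, 2.39% were above the parental length in R100 and R500 and below it in R1000 and R4000. The parental length of Cdk6 rests on 1 peak of 250 bp from -3342 to -3093, and within 2 kb on both sides of the 5' end, where the parental line has no peak, R100 had 258 bp and R500 had 300 bp, with none for R1000 or R4000.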

How the results depend on the processing

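The summed covered length of the 10 genes against parental stayed within 1.5 times of its value under the other windows, the width minimum, the joining of peaks and lists of equal number. Without Ccnd2 the ratio was 8.6 in R100, 8 in R500 and 0.4 in R1000, on a parental length of 250 bp from 1 peak of Cdk6. As a share of each list it was 0.610 in R100, 0.671 in R500 and 1.46 in R4000, each on the other side of 1 from the unscaled ratio. In R1000 and R4000, where the unscaled ratios were 1.07 and 0.964, the side of 1 also changed with the window: from 20 kb upstream R1000 had 0.909, and within 2 kb on both sides R4000 had 1.15. In the 5 kb upstream alone, 2 genes were covered over at least 150 bp in R100, 3 in R500 and 1 in R4000, and 1 was longer than parental in R100, 2 in R500 and 0 in R4000. Within 2 kb on both sides of the 5' end, 1 gene was covered in the parental line and 0 were shorter in R1000 and R4000, since the parental peak of Cdk6 lies outside. With a minimum of 1 bp, 2 genes were covered in R1000 and 4 in R4000. With lists of equal number, 2 genes were longer in R100. Of the 40 differences of a gene between a resistant line and the parental line, 21 were 0 and stayed at 0 in every setting. Of the other 19, 14 moved by more than 1.5 times in the 5 kb upstream, 8 within 2 kb and 1 with peaks of at least 100 bp. With peaks joined 6 did, with lists of equal number 7, and from 20 kb upstream 3. Of the called ones 0 changed direction, but those of Ccna2, Ccnb1 and Ccnd1 could not, since their parental length was 0 in every setting. The differences of Ccnd2, which were not called, did change direction. In R1000 it went from 450 to -350 bp from 20 kb upstream. In R4000 it went from -250 bp to 150 bp in the 5 kb upstream and to 400 bp with peaks joined. No paired analysis was possible because each line has 1 list, and for the same reason no replicate could be left out. The unknown depth limits every comparison of covered length between lines.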

Other observations

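The genes whose covered lengths were most like those of Ccnd2, by the sum over the 5 lines of absolute differences, were Elfn1 (1664 bp), Foxc1 (1792 bp) and Nr4a3 (1882 bp). Foxc1, a forkhead transcription factor of development, had 3890 bp in parental cells, 5690 bp for R100, 5640 bp for R500, 4140 bp for R1000 and 2140 bp for R4000. Each of the 3 had less covered length in R4000 than Ccnd2 did (2600 bp in Elfn1 and 2800 bp in Nr4a3, against 3616 bp).

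For Cdk6 the most alike genes were Esrra, Lrrc50 and Bmper, each with a summed difference of 200 bp. Esrra, an orphan nuclear receptor, was covered over 153, 653, 900, 50 and 50 bp in the order parental, R100, R500, R1000 and R4000. Likeness here is over 5 lines of 1 list each and is a description only.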
